A study of Caenorhabditis elegans with 12 samples.

Results

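The body-shape cuticle collagens described here are 10 genes of Caenorhabditis elegans, taken by their gene identifiers from the 46929 genes of the count table: rol-6, sqt-1, sqt-3, dpy-17, dpy-13, dpy-4, dpy-5, bli-1, bli-2 and lon-3. RNA of worms had been sequenced in 12 libraries from 4 diets with 3 replicates apiece. Worms were fed a control diet, desiccated thymus (spelled "Dessicated Thymus" in the labels), a cytoplasmic extract of the gland ("Cytoplamsic Thymus Gland Extract") and a nuclear extract ("Nuclear Thymus Gland Extract"), of bovine origin per the series title. The molecule field of all 12 samples reads nuclear RNA, whereas the protocol describes total RNA enriched with oligo(dT). Which of them holds cannot be told from the labels, and it bears on how much unspliced RNA the levels include. All worms were grown on live bacteria in NGM until the L4 larval stage, and the supplements were fed from day 1 of adulthood. The sources used here give no strain, sex, genotype or age at collection. The series asks how gene expression of adult worms differs between these diets, and in whole animals fewer cells of a type and less RNA per cell cannot be told apart.

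The cuticle of the worm is a collagen exoskeleton that the hypodermis, its epidermis, secretes before hatching and again at each molt. Cuticle collagens carry Gly-X-Y repeats, are trimmed by proteases, assemble as trimers and are crosslinked outside the cell. They are encoded by a large gene family, and loss of most single members leaves the body shape normal. The genes described here are among the exceptions and are named for their mutants: short and stout (dumpy, dpy), helically twisted (roller, rol), squat (sqt), blistered (bli) or long (lon). Cuticle collagen RNAs are made in pulses tied to the molting cycle, with different collagens at different times, and adults do not molt.

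Library totals ran from 23.1 to 33.4 in units of 1e6 counts. The share of ribosomal RNA genes was 0.377% to 2.16% apart from desiccated thymus replicate 3, where it reached 14.01%. Every marker of muscle, intestine, neurons and oocytes had counts in all 12 libraries, and so had 10 of 11 hypodermis markers, while wrt-8 was at 0 in 3 libraries.

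All 10 genes passed the filter on low counts. They lie on chromosome I (1 gene), II (4), III (1), IV (2) and V (2) of WBcel235, each with 1 to 5 exons. The nearest 2 of them, lon-3 and sqt-3, are 154 kb apart. Together they took between 532 counts, in control replicate 1, and 3235 counts, in desiccated thymus replicate 2. These sums are 21.2 and 135 CPM (counts per 1e6 after TMM scaling). Per length, the order of the mean levels over the 12 libraries was dpy-17 (16.0 ± 7.64 RPKM, counts per 1e6 per kilobase of exon; SD, n = 12), sqt-3 (12.3 ± 6.36), dpy-5 (10.97 ± 9.98), dpy-13 (9.01 ± 7.71), dpy-4 (8.43 ± 7.57), sqt-1 (2.01 ± 1.67), rol-6 (1.61 ± 1.19), bli-2 (1.20 ± 1.35), lon-3 (1.18 ± 1.28) and bli-1 (0.576 ± 0.681). Neighbours in this order lay closer together than the larger of their SDs in every case.

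The first pair, sqt-3 and dpy-17, encodes collagens whose products depend on each other: SQT-3 is cut by the astacin protease DPY-31, and mutants of dpy-17 and sqt-3 interact. The gene sqt-3 (CELE_F23H12.4, chromosome V, 12352745 to 12354320, plus strand, 5 exons) measured 7.02, 12.7 and 8.71 CPM in control replicates 1, 2 and 3, 14.6, 21.1 and 13.1 with desiccated thymus, 20.3, 17.8 and 15.0 with the cytoplasmic extract, and 16.5, 21.5 and 42.4 with the nuclear extract. Each of the 9 supplement libraries lay above each control. The gene dpy-17 (CELE_F54D8.1, chromosome III, 5107330 to 5108492, plus strand, 2 exons) measured 13.4, 14.04 and 12.1 CPM in the control, 16.9, 16.6 and 15.0 with desiccated thymus, 15.7, 18.2 and 16.3 with the cytoplasmic extract, and 14.9, 15.8 and 44.2 with the nuclear extract. Again all 9 supplement libraries lay above the controls, by small margins apart from nuclear extract replicate 3, which stood far above the other 11 in both genes. An annotated noncoding gene on the opposite strand, F23H12.13, shares 144 exonic bases with sqt-3 and was listed at 0 counts in total.

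The dumpy genes dpy-13, dpy-4 and dpy-5 encode collagens that are needed for normal body length, and the DPY-5 precursor is processed by the BLI-4 convertase. For dpy-13 (CELE_F30B5.1, chromosome IV, 4235614 to 4236710, plus strand, 3 exons) the control held 0.0399, 6.36 and 2.94 CPM, desiccated thymus 5.37, 25.1 and 5.17, the cytoplasmic extract 19.7, 10.6 and 2.69, and the nuclear extract 4.33, 16.0 and 8.59. Control replicate 1 had 1 count of this gene, and the replicates of every diet spread by at least 3.70-fold. For dpy-4 (CELE_Y41E3.2, chromosome IV, 14985543 to 14986784, minus strand, 3 exons) the values were 0.0797, 5.604 and 1.95 CPM in the control, 4.93, 23.5 and 5.72 with desiccated thymus, 18.5, 12.5 and 1.57 with the cytoplasmic extract, and 3.79, 17.1 and 6.20 with the nuclear extract. For dpy-5 (CELE_F27C1.8, chromosome I, 5432197 to 5433051, minus strand, 1 exon) they were 0.159, 6.49 and 1.99 CPM in the control, 6.13, 29.9 and 7.43 with desiccated thymus, 19.3, 10.3 and 1.79 with the cytoplasmic extract, and 4.75, 15.8 and 8.59 with the nuclear extract. In all 3 genes the groups overlapped, desiccated thymus replicate 2 and cytoplasmic extract replicate 1 were the 2 highest libraries, and control replicate 1 was the lowest.

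The products of rol-6 and sqt-1 are closely related collagens that act together, and a dominant rol-6 allele that makes worms roll is a common marker of transformation. The gene rol-6 (CELE_T01B7.7, chromosome II, 8733050 to 8734239, plus strand, 3 exons) measured 0.0399, 0.626 and 0.420 CPM in the control, 2.41, 2.75 and 0.969 with desiccated thymus, 2.31, 2.83 and 0.860 with the cytoplasmic extract, and 1.78, 4.60 and 1.42 with the nuclear extract. No supplement library overlapped the control, where the 3 libraries held 1, 19 and 11 counts. The gene sqt-1 (CELE_B0491.2, chromosome II, 11336693 to 11337837, minus strand, 3 exons) measured 0, 0.923 and 0.497 CPM in the control, 1.26, 4.20 and 0.462 with desiccated thymus, 3.18, 3.37 and 1.61 with the cytoplasmic extract, and 2.43, 5.77 and 1.47 with the nuclear extract. Its count of 0 in control replicate 1 allows a level of up to 0.120 CPM (3 counts, counting error only), and only desiccated thymus replicate 3 fell within the control range. Reads that match both genes may be shared between them, since the sources used here do not give how such reads were treated.

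The blister genes bli-1 and bli-2 encode collagens of the struts that join the cortical and basal layers of the adult cuticle. The gene bli-1 (CELE_C09G5.6, chromosome II, 10708960 to 10712156, plus strand, 5 exons) measured 0.239, 0.264 and 0.382 CPM in the control, 0.704, 3.91 and 1.34 with desiccated thymus, 2.61, 4.82 and 0.112 with the cytoplasmic extract, and 0.116, 5.85 and 0.461 with the nuclear extract. The gene bli-2 (CELE_F59E12.12, chromosome II, 5651394 to 5652434, minus strand, 2 exons) measured 0.159, 0.0989 and 0 CPM in the control, 1.29, 2.95 and 0.554 with desiccated thymus, 2.00, 3.47 and 0.336 with the cytoplasmic extract, and 0.154, 3.17 and 0.168 with the nuclear extract. With either extract the bli-1 libraries ranged from below the lowest control to far above the highest, 3 to 155 counts with the nuclear extract, and the 3 controls of bli-2 held 4, 3 and 0 counts. LON-3, which limits body length, is the product of lon-3 (CELE_ZK836.1, chromosome V, 12197437 to 12198645, minus strand, 2 exons). Its gene measured 0.0797, 0.363 and 0.344 CPM in the control, 0.792, 4.58 and 0.554 with desiccated thymus, 1.59, 3.17 and 0.374 with the cytoplasmic extract, and 0.695, 2.94 and 0.503 with the nuclear extract. All supplement libraries were above the controls, the closest being 0.374 against 0.363 CPM.

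The genes dpy-4, bli-1, bli-2 and lon-3 lie within the span of a gene on the opposite strand (atln-2, dph-2, zyg-1 and ogdh-2). Only bli-1 shares exonic bases with that gene, 7 with dph-2. Whether counting used strand was not stated there, and reads from unspliced RNA of the opposite strand cannot be told apart from reads of these genes. The gene ogdh-2 held 39056 counts in total and zyg-1 held 36401, against 425 for lon-3 and 391 for bli-2. The gene dph-2 held 15304, against 555 for bli-1, whereas atln-2 held 575, against 2684 for dpy-4.

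**Figure D1:**
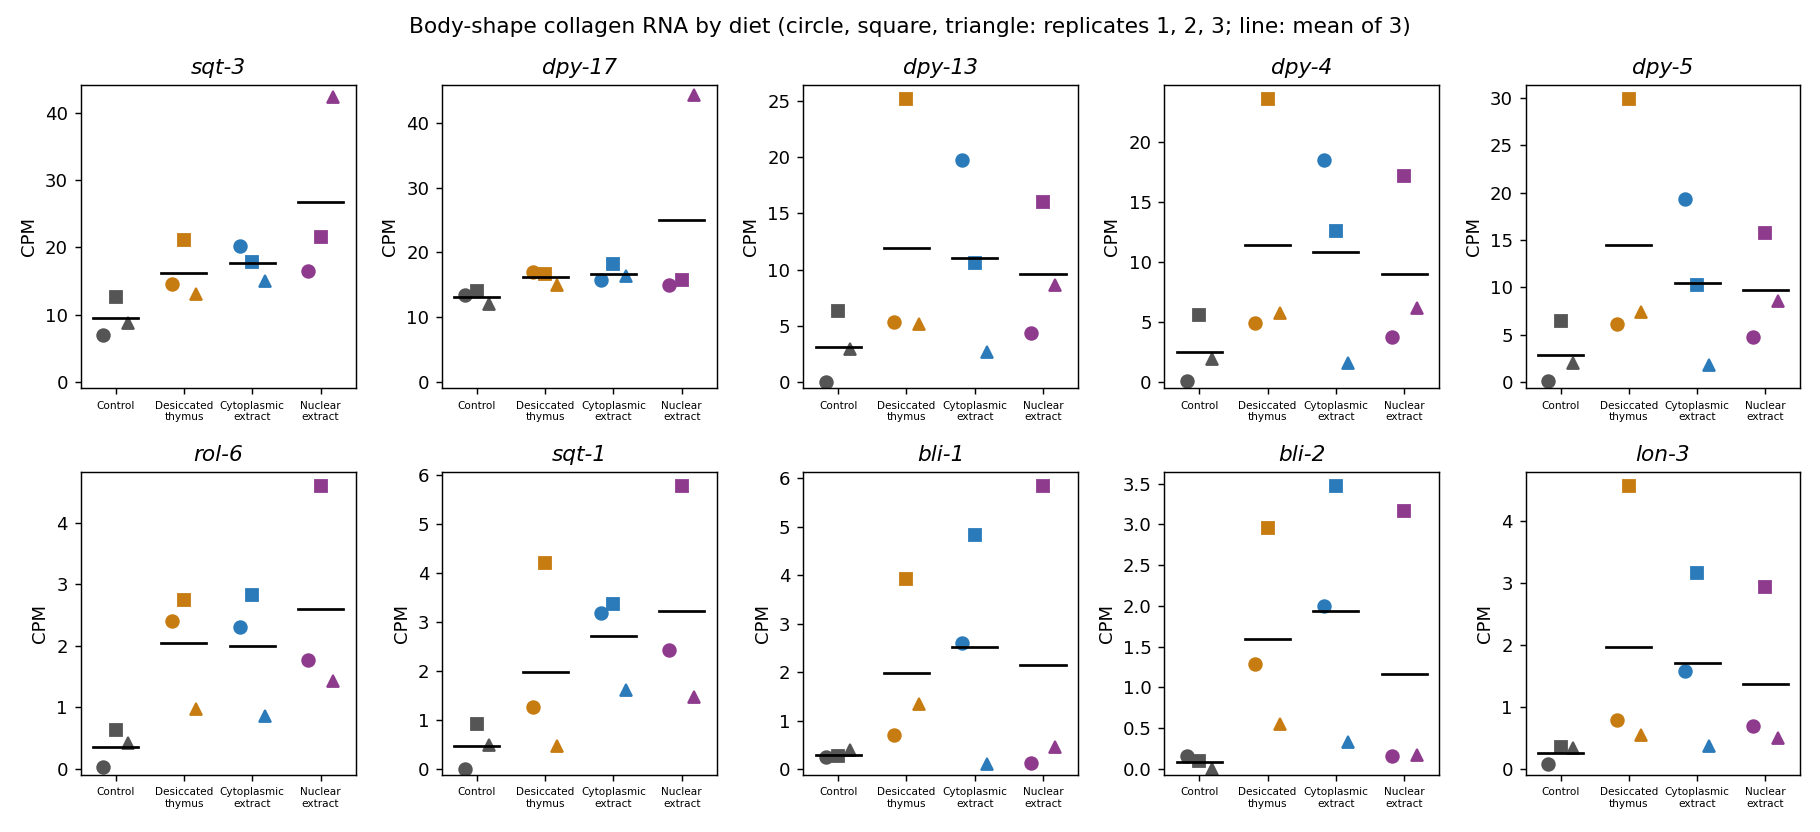
Level of each of the 10 collagen RNAs in CPM (vertical axis, linear, a separate scale for each gene) in the 12 libraries, grouped by diet, with the mean of 3 as a line. The replicates of a diet lie far apart for most genes, as for dpy-5 from 6.13 to 29.9 CPM with desiccated thymus, while dpy-17 lies between 12.1 and 18.2 CPM in all but nuclear extract replicate 3.

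Replicates of the same diet differed more for these genes than for most. The biological coefficient of variation, the spread between replicates beyond counting noise, was 30.7% for dpy-17, 30.8% for sqt-3, 59.7% for rol-6 and between 85.9% (lon-3) and 112% (bli-1) for the other 7 genes, against a median of 13.5% over the 14610 tested genes. For log2 CPM the SD within diets was 0.45 for dpy-17 and 0.46 for sqt-3, and it ran from 1.01 (rol-6) to 1.89 (bli-1) in the others, with a median of 0.17 over all tested genes. Genes at a similar level, within 2-fold of the member's mean CPM, had a smaller SD within diets in 95.9% (rol-6) to 99.5% (dpy-13) of cases.

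Most of these genes moved together from library to library, including between replicates of 1 diet. Pearson's r of log2 CPM over the 12 libraries, given as a description since the libraries share diets and scaling, was 0.99 for dpy-4 with dpy-5, 0.99 for dpy-13 with dpy-4 and 0.98 for dpy-13 with dpy-5. After removal of the diet means these were 0.99, 0.98 and 0.98. In the 11 libraries other than control replicate 1, the level of dpy-4 was 0.722 to 1.22 times that of dpy-5 in CPM, although dpy-5 itself ranged from 1.79 to 29.9 CPM. The dpy-4 and dpy-13 genes lie 10749 kb apart on chromosome IV, and dpy-5 is on another chromosome. For rol-6 with sqt-1 r was 0.94, and 0.93 within diets. For bli-1 with bli-2 it was 0.86 in both cases, and for bli-1 with lon-3 it was 0.85, or 0.83 within diets.

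Some pairs across the mutant classes reached similar values. Here r was 0.91 for rol-6 with dpy-4, 0.90 for sqt-1 with dpy-13, 0.88 for rol-6 with lon-3 and 0.88 for dpy-4 with lon-3. The genes of these pairs thus did not separate by class. Apart from lon-3, r of bli-1 or bli-2 with genes of other classes was lower, at most 0.73 (rol-6 with bli-2). It was 0.55 for sqt-1 with bli-1 and 0.58 for dpy-13 with bli-2, or 0.47 and 0.31 within diets.

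The gene dpy-17 followed another course. Its r with sqt-3 was 0.82, or 0.77 within diets, while r of dpy-17 with the other 8 genes lay between 0.05 (bli-1) and 0.29 (rol-6), and between -0.22 (lon-3) and 0.03 (dpy-5) within diets. The share of sqt-3 and dpy-17 among all counts of the 10 genes ranged from 28.0% in desiccated thymus replicate 2 to 96.2% in control replicate 1. In nuclear extract replicate 3 it was 76.0%, with dpy-17 at its highest and bli-1, bli-2 and lon-3 each at 0.503 CPM or less.

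**Figure D2:**
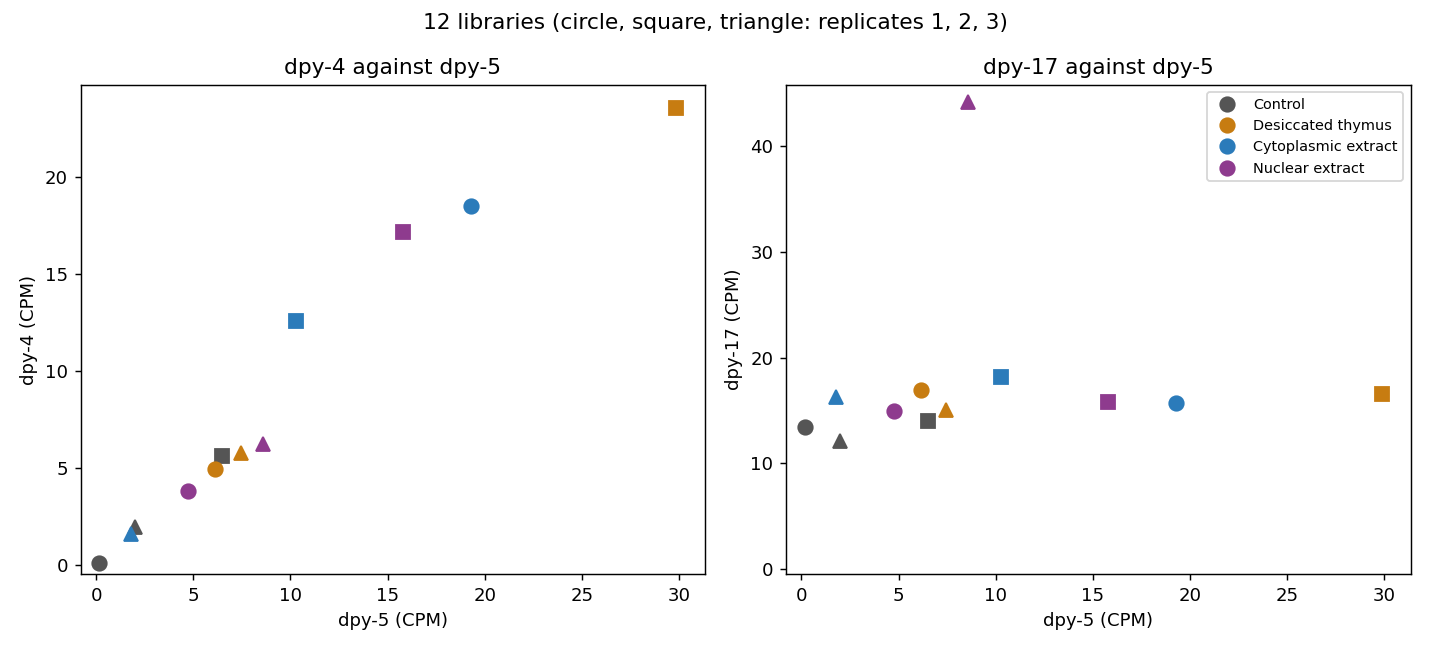
Level of dpy-4 against dpy-5 (left) and of dpy-17 against dpy-5 (right) in CPM on linear axes, 1 point for each of 12 libraries, coloured by diet with the replicate number as the symbol. The left points lie close to a line from 0.159 CPM to 29.9 CPM of dpy-5, whereas on the right dpy-17 stays between 12.1 and 18.2 CPM across that range and reaches 44.2 CPM in 1 library.

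**Figure D3:**
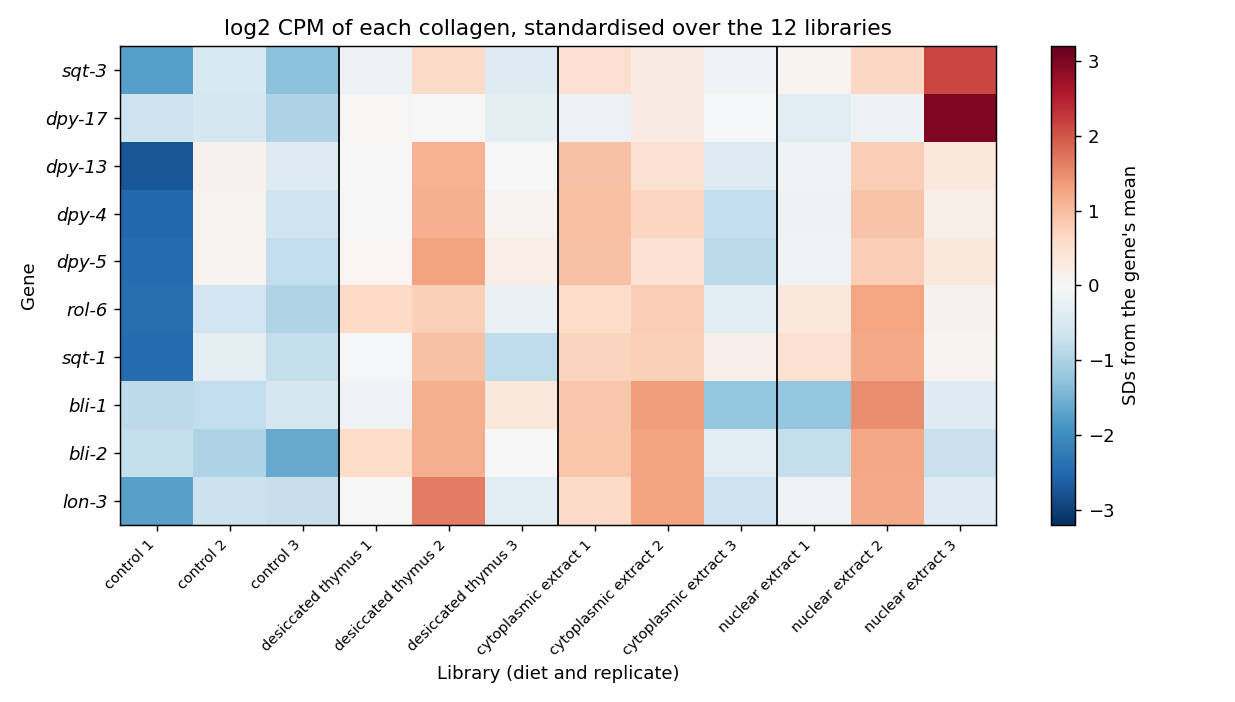
Log2 CPM of each gene (rows) in each library (columns), as SDs from that gene's mean over the 12 libraries, red for above and blue for below. Control replicate 1 is lowest for 7 of the 10 genes (-2.74 SDs for dpy-13), desiccated thymus replicate 2 and nuclear extract replicate 2 are high for most, and nuclear extract replicate 3 stands out for dpy-17 (2.99 SDs).

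Control replicate 1 was the lowest of the 12 libraries for 7 genes, the second lowest for dpy-17, the third for bli-1 and the fourth for bli-2. The same library had the lowest summed level of hypodermis markers (57.4 CPM, against 63.4 to 105 in the other 11) and of the molting and apical matrix genes (74.8 CPM, against 111 to 175). It was not low in epidermal lists alone. Control replicate 1 was also the lowest library for body wall muscle markers (833 CPM), intestine markers (1097 CPM) and the col- genes (1436 CPM). The same held for the collagen processing and crosslinking genes (1673 CPM) and the DBL-1 genes (243 CPM), while oocyte and eggshell markers were highest there (13366 CPM). Other lists were lowest elsewhere, annular furrow collagens and neuron markers in control replicate 2 and adult-enriched collagens in cytoplasmic extract replicate 3. Epidermal transcription factors were lowest in nuclear extract replicate 1. The part of these lists in the level of the collagens was not tested. Sperm markers moved with some of the same libraries: their 11 genes summed to 20.6 CPM in control replicate 2, 20.0 in nuclear extract replicate 2, 17.3 in desiccated thymus replicate 2, 13.6 in cytoplasmic extract replicate 2 and 10.7 in cytoplasmic extract replicate 1, and to between 2.45 and 7.83 in the other 7, with ssp-9 at 0 in all libraries. Early embryo markers summed to 21.3 to 28.0 CPM, body wall muscle markers to 833 to 1348 CPM and neuron markers to 306 to 329 CPM. The part of sperm, embryo or muscle RNA in these levels was likewise not tested.

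The 5 genes whose log2 CPM over the 12 libraries was most like the mean standardised profile of the 10 collagens were H42K12.3 (Pearson's r 0.97, 0.199 to 2.83 CPM), the cuticle collagen gene rol-8 (0.95, 0.159 to 5.55 CPM), mua-3 (0.94, 7.61 to 19.8 CPM), which encodes a transmembrane protein that anchors the hypodermis to the cuticle, the collagen gene col-73 (0.93, 0.0797 to 41.6 CPM) and T03D8.6 (0.92, 9.45 to 15.1 CPM). All 5 had their lowest level in control replicate 1, which was also the lowest library of the profile used to choose them (-1.83). The r values describe these libraries and carry no test.

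The first comparison set the diet with the nuclear fraction beside the control. Of the 10 collagens, rol-6 and sqt-3 rose and none fell (quasi-likelihood test in edgeR with Benjamini-Hochberg adjustment over all tested genes). Of all tested genes 13.3% were called and 8.79% rose. At an unadjusted p under 0.05, 4 collagens were higher, rol-6, sqt-1, sqt-3 and dpy-17, beside 17.3% of all tested genes. DESeq2 called rol-6, sqt-3 and bli-2, where it called 2633 of 12856 genes in either direction. The gene sqt-3 averaged 9.47 ± 2.91 CPM in the control and 26.8 ± 13.7 with the nuclear extract (SD, n = 3), a log2 fold change of 1.48 (SE 0.384, edgeR adjusted p = 0.0375). The gene rol-6 averaged 0.362 ± 0.298 and 2.60 ± 1.74 CPM, a log2 fold change of 2.78 (SE 0.790, edgeR adjusted p = 0.0438). Both calls lie close to the threshold. When each of the 12 libraries was left out in turn, rol-6 kept its call in 3 fits (edgeR adjusted p 0.0315 to 0.132 over all 12) and sqt-3 in 2 (0.0222 to 0.131). Over these fits the log2 fold change of rol-6 lay between 2.07 and 3.47 and that of sqt-3 between 0.99 and 1.76, above 0 in all 12. Neither passed in the fits without 1 of the 3 controls, nuclear extract replicate 2 or 3, desiccated thymus replicate 1 or cytoplasmic extract replicate 1. Neither passed when library totals alone were used for scaling (0.0817 and 0.0573), with no filter on low counts (0.115 and 0.0719) or when only these 2 groups were fitted (0.0652 and 0.133).

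The other 8 collagens had positive log2 fold changes with the nuclear extract that did not pass. They were 0.91 for dpy-17 (SE 0.383), 1.57 for dpy-13 (SE 1.14), 1.76 for dpy-4 (SE 1.23), 1.68 for dpy-5 (SE 1.17), 2.70 for sqt-1 (SE 0.985), 2.88 for bli-1 (SE 1.84), 3.74 for bli-2 (SE 1.92) and 2.37 for lon-3 (SE 1.51). Several of these values rest on 1 library: dpy-17 was 0.22 without nuclear extract replicate 3, and bli-1 was -0.06 and bli-2 0.87 without nuclear extract replicate 2. Groups did not overlap for rol-6, sqt-1, sqt-3, dpy-17 and lon-3, 5 of 10, beside 17.8% of all tested genes that were higher without overlap. The median over the 10 was 2.07, against 0.02 over all tested genes, and it was 1.14 without nuclear extract replicate 2. Markers of other tissues differed in the same comparison: 6 of 10 oocyte and eggshell markers fell (0 when library totals alone were used for scaling), 4 of 8 intestine markers rose, 3 of 9 neuron markers rose and 1 fell (0 called without nuclear extract replicate 3), and none of the sperm or body wall muscle markers passed. Their part in the collagen levels was not tested. With the replicate number as a block, 4 collagens were called: rol-6, sqt-1 (edgeR adjusted p = 0.0111), bli-2 (0.0108) and lon-3 (0.0155), while sqt-3 was not (0.059). That fit called 2080 of 14610 genes.

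With the dried gland in the diet, none of the 10 collagens passed edgeR's test against the control. Of all tested genes 3.87% were called and 2.97% rose. At an unadjusted p under 0.05, 2 were higher, rol-6 and bli-2, and 10.1% of all tested genes were. DESeq2 called these 2 genes (adjusted p 0.00325 and 0.0469), where it called 883 of 13359 genes. The gene rol-6 averaged 2.04 ± 0.943 CPM (SD, n = 3), a log2 fold change of 2.46 (SE 0.822, edgeR adjusted p = 0.155), and bli-2 averaged 1.60 ± 1.23 against 0.0861 ± 0.0805 CPM, a log2 fold change of 4.14 (SE 1.78, edgeR adjusted p = 0.272). The fold change of bli-2 depends on 7 counts in the 3 controls together. All 10 values were positive, from 0.30 (dpy-17) to 4.14, with a median of 2.15 that was 1.06 without desiccated thymus replicate 2. In the same comparison 3 of 8 intestine markers rose, and no oocyte, neuron, sperm or body wall muscle marker passed, although 4 of 10 oocyte and eggshell markers were lower at an unadjusted p under 0.05 and DESeq2 called 1 of them. The part of these markers in the collagen values was not tested. Groups did not overlap for 6 genes, rol-6, sqt-3, dpy-17, bli-1, bli-2 and lon-3, beside 12.3% of all tested genes. With the replicate number as a block, 3 were called: rol-6 (edgeR adjusted p = 0.0078), bli-2 (0.007) and lon-3 (0.00865), beside 594 of 14610 genes. When only these 2 groups were fitted, bli-2 alone of the collagens was called (0.044), beside 327 of 13678 genes.

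With the cytoplasmic fraction in the diet, none of the 10 collagens passed edgeR's test against the control. Of all tested genes 0.712% were called and 0.5% rose. At an unadjusted p under 0.05, 4 were higher, rol-6, sqt-1, sqt-3 and bli-2, beside 7.81% of all tested genes. DESeq2 called rol-6 (adjusted p = 0.00951), where it called 340 of 13359 genes. The edgeR fit with the replicate number as a block called 3 of the 10 collagens, beside 115 of 14610 genes. The gene rol-6 averaged 2.00 ± 1.02 CPM (SD, n = 3), a log2 fold change of 2.40 (SE 0.824, edgeR adjusted p = 0.257), and sqt-1 averaged 2.72 ± 0.968 against 0.473 ± 0.462 CPM, a log2 fold change of 2.44 (SE 1.01, edgeR adjusted p = 0.368). No intestine, oocyte, neuron, sperm or body wall muscle marker passed in edgeR in this comparison. At an unadjusted p under 0.05, 6 of 10 oocyte and eggshell markers were lower, and DESeq2 called 2 of them. At the same threshold 1 of 8 intestine and 2 of 9 neuron markers were higher, and DESeq2 called 1 intestine marker, higher. Of 6 tested early embryo markers, hch-1 rose (1.45). With the nuclear extract 1 of the 6 also rose, and with desiccated thymus edgeR called 0 and DESeq2 called 1, higher. The median over the 10 collagens was 2.21, and groups did not overlap for 6, rol-6, sqt-1, sqt-3, dpy-17, bli-2 and lon-3, beside 9.95% of all tested genes.

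The 3 comparisons use the same 3 control libraries, so their values are not independent of each other. All 9 supplement libraries lay above all 3 controls for rol-6, sqt-3, dpy-17 and lon-3, beside 4.08% of all tested genes. Without control replicate 1 the medians over the 10 genes were 1.62 with desiccated thymus, 1.70 with the cytoplasmic and 1.64 with the nuclear extract, and without control replicate 2 they were 3.03, 3.05 and 2.96. In the test of any difference among the 4 diets, none of the 10 passed, where 7.67% of all tested genes did. At an unadjusted p under 0.05 there were 2, sqt-3 (edgeR adjusted p = 0.152) and rol-6 (0.158), beside 23.8% of all tested genes. DESeq2 called 2 of the 10, where it called 2007 of 11856 genes.

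**Figure D4:**
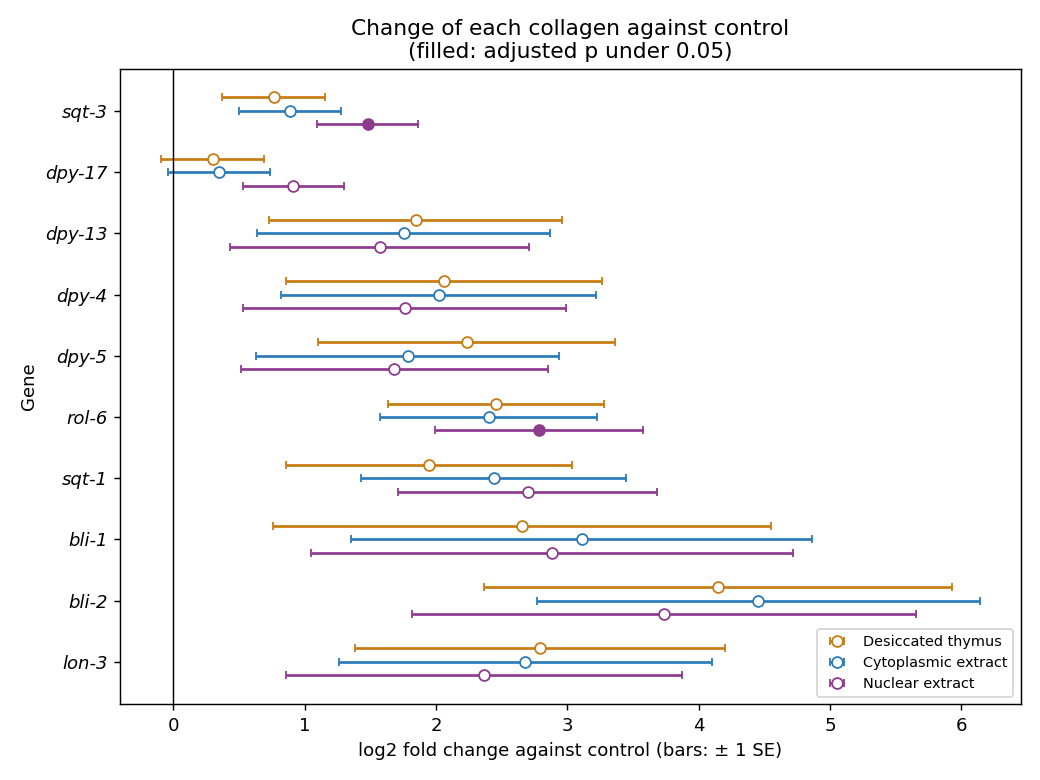
Log2 fold change of each gene against the control (horizontal axis, bars of 1 SE) for each of the 3 supplements, with filled symbols where the edgeR adjusted p is under 0.05. All 30 values are above 0, from 0.30 for dpy-17 to 4.45 for bli-2, and 2 of them, rol-6 and sqt-3 with the nuclear extract, are filled.

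Between the supplements no difference was detected for these genes. None of the 10 passed between the nuclear and the cytoplasmic extract, between desiccated thymus and the cytoplasmic extract or between desiccated thymus and the nuclear extract, where 1.78%, 1.23% and 0.164% of all tested genes were called. No collagen had an unadjusted p under 0.05, where 14.9%, 9.92% and 13.1% of all tested genes had. DESeq2 called none of them, where it called 473 of 12856, 338 of 12856 and 238 of 11354 genes. The groups overlapped for all 10 collagens in these comparisons, while 22.6%, 16.9% and 21% of all tested genes did not overlap. The medians were -0.14, -0.00 and 0.02, with signs mixed among the genes, but they rested on single libraries. Without desiccated thymus replicate 2 the medians of desiccated thymus were -1.02 against the cytoplasmic and -0.83 against the nuclear extract, with 0 of 10 genes above 0 in either. Without nuclear extract replicate 2 the median of desiccated thymus against the nuclear extract was 0.99, and that of the nuclear against the cytoplasmic extract was -0.71. The latter was 0.43 without cytoplasmic extract replicate 1, 0.48 without replicate 2, -0.62 without replicate 3 and 0.28 without nuclear extract replicate 1. The median of desiccated thymus against the cytoplasmic extract was -0.35 without cytoplasmic extract replicate 3 and 0.29 without cytoplasmic extract replicate 2. Desiccated thymus against the nuclear extract gave 0.43 without desiccated thymus replicate 1 and -0.33 without nuclear extract replicate 1. The SEs leave sizeable differences possible: between the nuclear and the cytoplasmic extract sqt-3 measured 0.59 (SE 0.362) and dpy-17 0.57 (SE 0.375), and between desiccated thymus and the nuclear extract sqt-3 measured -0.72 (SE 0.367). By mean CPM the control was lowest for all 10 genes, and the order of the other diets was not resolved for any of them.

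Other genes of cuticle formation and collagen processing were described by their counts and medians, with no test of the list. Of 6 annular furrow collagens, which are needed for the circumferential grooves of the cuticle, dpy-7 (log2 fold change 1.84), dpy-2 (1.61) and dpy-3 (1.46) rose with the nuclear extract and none fell, while none of the 6 passed with the other supplements in edgeR. At an unadjusted p under 0.05 there were 1 with desiccated thymus and 5 with the cytoplasmic extract, and DESeq2 called 1 and 2. The count of 3 became 1 when control replicate 1, control replicate 2, nuclear extract replicate 2 or nuclear extract replicate 3 was left out. Their median log2 fold changes were 0.64 with desiccated thymus, 1.16 with the cytoplasmic and 1.53 with the nuclear extract. A further 4 collagens named for mutant shape, bli-6, rol-8, sqt-2 and dpy-14, did not pass in any of the 3 comparisons, with medians of 1.99, 1.97 and 1.84 in the same order. Their counts at an unadjusted p under 0.05 were 1, 1 and 2, and DESeq2 called 0, 1 and 2. Of 120 tested genes named col- and a number, 5, 1 and 17 rose and none fell, with medians of 0.42, 0.47 and 0.91. The count of 17 was 12 without nuclear extract replicate 3, and that of 5 was 3 without desiccated thymus replicate 3. The adult-enriched collagens col-7 and col-19, which are also among the col- genes, did not pass. Nor did they at an unadjusted p under 0.05 or with DESeq2. Their medians, which for 2 genes are means, were -0.33, -0.53 and 0.00. With the nuclear extract 1 of the 2 values was above 0 and the other was not.

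Among 14 molting and apical matrix genes, 8 rose with the nuclear extract and none fell, led by mlt-9 (2.34), the patched-related gene ptr-4 (1.93), acn-1 (1.84), which encodes a protein like angiotensin-converting enzyme, and mlt-11 (1.72), whose product resembles protease inhibitors. The astacin protease gene nas-37 was the 1 gene called by edgeR with desiccated thymus (0.73) and with the cytoplasmic extract (0.89). At an unadjusted p under 0.05, 5 and 9 of the 14 were higher, and DESeq2 called 4 and 6, all higher, and 10 with the nuclear extract. The count of 8 was 5 with control replicate 1 or nuclear extract replicate 3 left out, and the medians were 0.66, 0.92 and 1.11. Of 10 tested hypodermis markers, 5 rose with the nuclear extract, among them the warthog genes wrt-2 (3.14) and wrt-1 (2.62) and the antimicrobial peptide genes nlp-31 (0.89) and nlp-29 (0.81), and none passed with the other supplements (4 with desiccated thymus and 6 with the cytoplasmic extract at an unadjusted p under 0.05, 1 and 2 with DESeq2). That count of 5 was 2 with no filter on low counts, 2 when only the 2 groups were fitted and 1 with control replicate 1 or control replicate 2 left out.

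Of 15 tested genes for collagen processing and crosslinking, not all of which encode enzymes, 4 rose with the nuclear extract and none fell. These were phy-3 (1.13), a prolyl 4-hydroxylase gene, let-268 (0.82), the lysyl hydroxylase gene, mlt-7 (0.53) and bli-3 (0.44). The product of mlt-7 is a peroxidase, and that of bli-3 is the dual oxidase that makes the crosslinking oxidant. Leaving out control replicate 1, nuclear extract replicate 2 or nuclear extract replicate 3 gave a count of 1. With desiccated thymus mlt-7 rose (0.60), a count of 1 that was 0 without control replicate 1, control replicate 3, desiccated thymus replicate 2 or desiccated thymus replicate 3, and with the cytoplasmic extract none passed (4 higher at an unadjusted p under 0.05, 1 with DESeq2). The medians were 0.13, 0.04 and 0.18, against -0.00 to 0.02 over all tested genes.

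The DBL-1 pathway, a BMP-like signal that sets body size, and the epidermal transcription factors also moved by small amounts. Of 11 tested DBL-1 genes, 4 rose with the nuclear extract and none fell: sma-10 (0.59), lon-1 (0.58), lon-2 (0.24), which encodes a glypican that restrains the signal, and sma-9 (0.21), which encodes a Schnurri-type cofactor. With desiccated thymus sma-10 (0.45) and lon-2 (0.33) rose, and with the cytoplasmic extract sma-10 (0.46) and lon-1 (0.42) rose. The count of 4 was 2 with control replicate 2, nuclear extract replicate 2 or nuclear extract replicate 3 left out. The count of 2 with desiccated thymus was 0 without control replicate 2 or desiccated thymus replicate 1, and that with the cytoplasmic extract was 0 to 1 without any 1 library. Of 15 epidermal transcription factor genes, blmp-1, which encodes a zinc finger factor, rose with the nuclear extract (0.57). In that comparison 5 were higher and 2 lower at an unadjusted p under 0.05, DESeq2 called 2 higher and 2 lower, and scaling by totals alone and the replicate block each called 2, both higher. None passed with desiccated thymus (3 at an unadjusted p under 0.05, 0 with DESeq2) or the cytoplasmic extract (2 and 0).

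**Figure D5:**
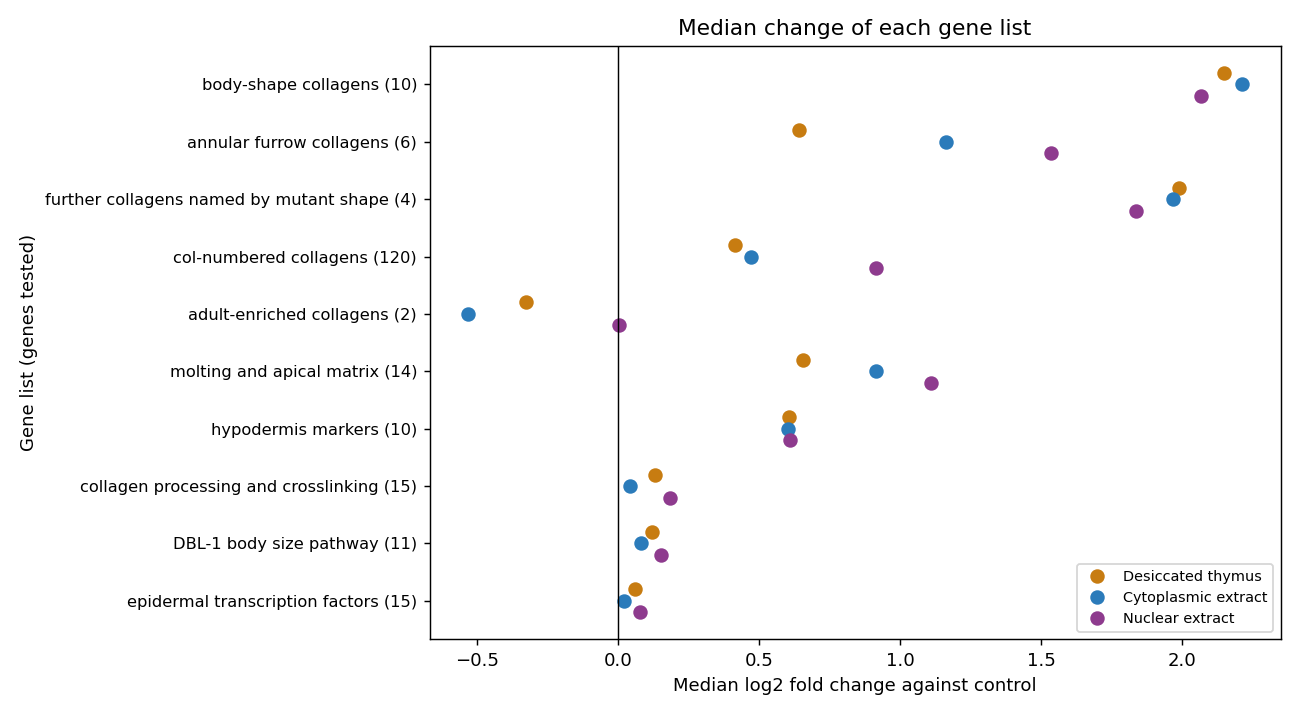
Median log2 fold change against the control (horizontal axis) of each gene list (rows, with the number of genes tested) for the 3 supplements. The body-shape collagens lie at 2.15, 2.21 and 2.07 and the further collagens named for mutant shape at 1.84 to 1.99. The collagen processing and crosslinking genes, the DBL-1 pathway and the transcription factors lie between 0.02 and 0.18.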

How the data were processed

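Whole-number read counts per gene were deposited, which the authors made with Trimmomatic, STAR, featureCounts and DESeq2, per the submitters' processing notes, without versions. The genome build, WBcel235, follows from the chromosome names of the table, where 98.6% of gene starts equalled RefSeq's. Exon length, the other deposited column used, gave RPKM. Libraries were made with oligo(dT) beads, per the labels' protocols. Columns were matched to titles by the diets' initials and replicate number, which is an inference from names.

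Genes were kept by filterByExpr (minimum count 10), leaving 14610. Libraries were scaled by TMM, and 1 model with a mean per diet was fitted to all 12 by robust quasi-likelihood (edgeR 4.0.16, R 4.3.3). Tests were two-sided with a threshold of 0.05. The scripts were tested on simulated data. Standard errors are the fold change over the root of the test statistic. Log2 CPM used a prior count of 2. Library totals are in the report. An exact permutation test of 3 against 3 cannot give a p below 0.1. The labels do not say whether replicates came from separate cultures: the p-values rest on the spread between these libraries alone, which may be technical.

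The 10 genes and all lists were chosen with earlier results of these data known. Named beside them were up to 4 passing genes per list of largest change, and the 5 most similar profiles. The gene crm-1 of the DBL-1 list was not matched by name.

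Deviations from the group means correlated between control and desiccated thymus libraries of equal number (0.149, 0.471 and 0.199), and between control and nuclear extract libraries of equal number (0.383, 0.669 and 0.33). The same held between desiccated thymus and nuclear extract libraries (0.254, 0.473 and 0.197). The main fit had no block, so its fold changes, SEs and adjusted p-values leave this pairing out. The fit with the replicate number as a block is given beside it. The labels name no shared batch.

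Alternatives were DESeq2 1.42.0, RLE factors, library totals only, ribosomal RNA genes removed, no filter, 2 groups only, a replicate block and leaving out each library.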

Additional observations from a re-analysis of the deposited data

How the results depend on the processing

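The number of the 10 collagens called with the nuclear extract against the control was 2. It was 0 with scaling by library totals only, with no filter on low counts and when only the 2 groups were fitted, 3 with DESeq2, 4 with the replicate block and 0 to 1 when 1 library was left out. For desiccated thymus against the control the count of 0 became 2 with DESeq2, 1 when only the 2 groups were fitted and 3 with the replicate block, and stayed 0 in the other settings. For the cytoplasmic extract against the control it became 1 with DESeq2 and 3 with the replicate block, which called 115 of 14610 genes. These libraries' numbers pair unevenly, with correlations of -0.358, 0.458 and 0.349 for replicates 1, 2 and 3. In the test of any difference among the 4 diets the count of 0 became 2 with DESeq2. It became 4 with the replicate block, which called 1137 of 14610 genes. Between the supplements the count was 0 in every setting run. RLE size factors and removal of ribosomal RNA genes changed none of these counts. When only 2 groups were fitted, 8 of the 10 collagens passed the filter in the comparisons of the cytoplasmic and the nuclear extract with the control. No single-gene change that was called in either fit turned its direction. The cause of these differences was not tested. Low counts limit rol-6, sqt-1, bli-1, bli-2 and lon-3, which held 391 to 673 counts over all 12 libraries.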
